A study of Mus musculus with 2 samples.

Results

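The 10 genes Pax3, Pax7, Myod1, Myf5, Myf6, Myog, Myh3, Actc1, Ckm and Des, which mark skeletal muscle and its precursors, were examined as a check for other tissue in cartilage dissected from the ends of the embryonic mouse femur. They were 10 of the 20807 protein-coding genes annotated on autosomes. For each gene, all peaks of open chromatin inside the gene or within 50 kb of it were collected from both ends of the bone. This gave 13 peaks of 28257 called in the proximal femur and 13 of 27958 called in the distal femur, which merged into 14 separate regions of 32388.

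The peaks came from ATAC-seq, in which the Tn5 transposase cuts and tags DNA that nucleosomes leave accessible. Both groups were FVB mice (strain FVBNJ in the labels) at embryonic stage E15.5, with no transgene or treatment named. The cartilaginous growth zones at the proximal (hip) and distal (knee) ends of right and left femurs were cleared of soft tissue, cut from the bony shaft and pooled within 1 litter of 8 animals on average. Cells were released with collagenase, and 50000 cells went into each reaction. The labels call the cells chondrocytes. The study describes the tissue as also holding perichondrium, the sheath around the cartilage to which tendon and muscle attach.

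Each end had 2 biological replicates, but 1 list of peaks was deposited for each end, holding positions that were reproducible between the replicates. The lists hold no read counts, heights or scores, so sequencing depth behind each peak is unknown here, there is no replicate error, and no test of a difference between ends could be run. An absent peak means only that none was called at this threshold. In a dissected tissue, few muscle cells in the pool and little accessibility per cell cannot be told apart.

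Skeletal muscle of the trunk and limbs comes from somite cells that express the paired box factors Pax3 and Pax7. Cells committed to muscle switch on basic helix-loop-helix factors, which bind E-boxes (CANNTG) in DNA together with ubiquitous partner proteins and activate genes of the contractile apparatus. Cartilage arises from a different lineage under the control of Sox9, and in the limb bud the muscle precursors migrate in while cartilage forms in place.

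The sequences that the results turn on are shown here, from the strain C57BL/6J reference (GRCm38, the mm10 build), which can differ from the FVB genome. The first is the middle of the peak inside Myf6, called in the proximal femur alone. It is printed in the direction of the gene, is shown for its run of CACAG repeats and long T stretch, and lies on the minus strand at chr10:107493402-107493701. The second is the middle of the peak upstream of Myog, chr1:134244337-134244636, the only peak shared by both ends in a member's window that lay in no gene and at no start site. The third is the part of the Ckm peak ahead of the 3′ untranslated region, chr7:19421155-19421383. The last comes from downstream of Des inside the neighbouring gene Speg, from a peak called in both ends, chr1:75393081-75393380. All but the first are on the plus strand. Capitals mark every CANNTG and every TGANTCA, the motif of AP-1 factors.
Myf6, proximal only: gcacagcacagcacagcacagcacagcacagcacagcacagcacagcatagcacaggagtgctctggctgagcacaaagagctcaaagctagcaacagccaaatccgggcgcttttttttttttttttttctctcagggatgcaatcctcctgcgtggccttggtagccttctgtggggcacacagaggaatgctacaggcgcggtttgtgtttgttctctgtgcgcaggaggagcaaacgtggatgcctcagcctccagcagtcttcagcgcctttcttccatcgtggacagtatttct
Myog, both ends: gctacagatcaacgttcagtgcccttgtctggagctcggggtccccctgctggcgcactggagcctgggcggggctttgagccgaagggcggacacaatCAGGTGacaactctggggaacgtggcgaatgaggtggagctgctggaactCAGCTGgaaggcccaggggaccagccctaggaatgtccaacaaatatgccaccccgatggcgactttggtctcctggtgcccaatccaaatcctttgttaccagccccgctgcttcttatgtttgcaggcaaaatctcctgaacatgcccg
Ckm, both ends: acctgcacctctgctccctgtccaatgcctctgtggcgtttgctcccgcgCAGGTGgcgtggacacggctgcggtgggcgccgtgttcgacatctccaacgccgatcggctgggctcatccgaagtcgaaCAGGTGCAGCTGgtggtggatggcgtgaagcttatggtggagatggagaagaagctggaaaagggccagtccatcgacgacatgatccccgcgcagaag
Speg, both ends: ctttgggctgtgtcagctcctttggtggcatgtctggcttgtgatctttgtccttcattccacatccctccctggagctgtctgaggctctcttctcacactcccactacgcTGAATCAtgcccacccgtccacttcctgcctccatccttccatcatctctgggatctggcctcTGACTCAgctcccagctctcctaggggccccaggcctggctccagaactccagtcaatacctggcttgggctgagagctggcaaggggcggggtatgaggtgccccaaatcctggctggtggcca

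The promoters of 3 members, none of which overlapped a peak in either end, are shown for their matches to CANNTG or to the CArG box. Sequence came from RefSeq (GRCm38.p6), cut so that no untranslated bases remain. They lie at chr1:134289754-134289988 on the plus strand (Myog), chr2:114052888-114053125 on the minus strand (Actc1) and chr1:75360042-75360291 on the plus strand (Des). Capitals mark CANNTG and the CArG box, the motif of serum response factor.
Myog promoter: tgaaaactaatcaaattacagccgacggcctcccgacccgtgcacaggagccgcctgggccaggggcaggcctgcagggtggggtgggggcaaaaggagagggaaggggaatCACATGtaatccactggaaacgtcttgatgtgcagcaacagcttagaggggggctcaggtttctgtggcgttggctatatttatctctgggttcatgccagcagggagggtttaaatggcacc
Actc1 promoter: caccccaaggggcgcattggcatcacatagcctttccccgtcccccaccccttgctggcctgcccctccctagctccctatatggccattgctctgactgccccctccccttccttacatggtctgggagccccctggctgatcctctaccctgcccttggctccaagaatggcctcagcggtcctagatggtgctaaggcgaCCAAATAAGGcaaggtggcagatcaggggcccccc
Des promoter: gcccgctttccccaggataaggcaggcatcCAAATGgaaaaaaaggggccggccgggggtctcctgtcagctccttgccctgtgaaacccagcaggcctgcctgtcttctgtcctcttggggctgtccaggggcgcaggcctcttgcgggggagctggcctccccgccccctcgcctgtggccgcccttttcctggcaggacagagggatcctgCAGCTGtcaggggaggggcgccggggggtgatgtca

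A promoter peak, taken as a peak within 1 kb of any annotated start site of the gene, was called at 1 of 10 members in the proximal femur (Myf6) and at 0 of 10 in the distal femur. Over all 20807 genes the corresponding shares were 56.4% and 57.7%. Pax3, Pax7, Myod1, Myf5, Myog, Myh3, Actc1, Ckm and Des had no promoter peak in either end, so 9 of 10 members lacked one where 40.9% of all genes did. A promoter peak in the proximal femur alone was present at 1.37% of all genes and one in the distal femur alone at 2.77%, against 1 and 0 of the 10 members. The single member peak was offset from the start site rather than centred on it. Where a promoter was defined as 1 kb upstream to 100 bp downstream of the start, the proximal count was 0.

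At least 1 peak within 50 kb was called for 7 of 10 members in the proximal femur and 5 of 10 in the distal femur, while 84.8% and 84.7% of all genes had one. Pax3, Pax7 and Actc1 had none in either end, a state found at 13.6% of all genes. The median member had 1.00 peak in the proximal femur and 0.5 in the distal femur, and the median gene had 3 in each, with quartiles of 1 and 4. Ckm, with 6 peaks in each end, and Des, with 3 and 4, were the only members at or above the median gene in both ends.

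**Figure D1:**
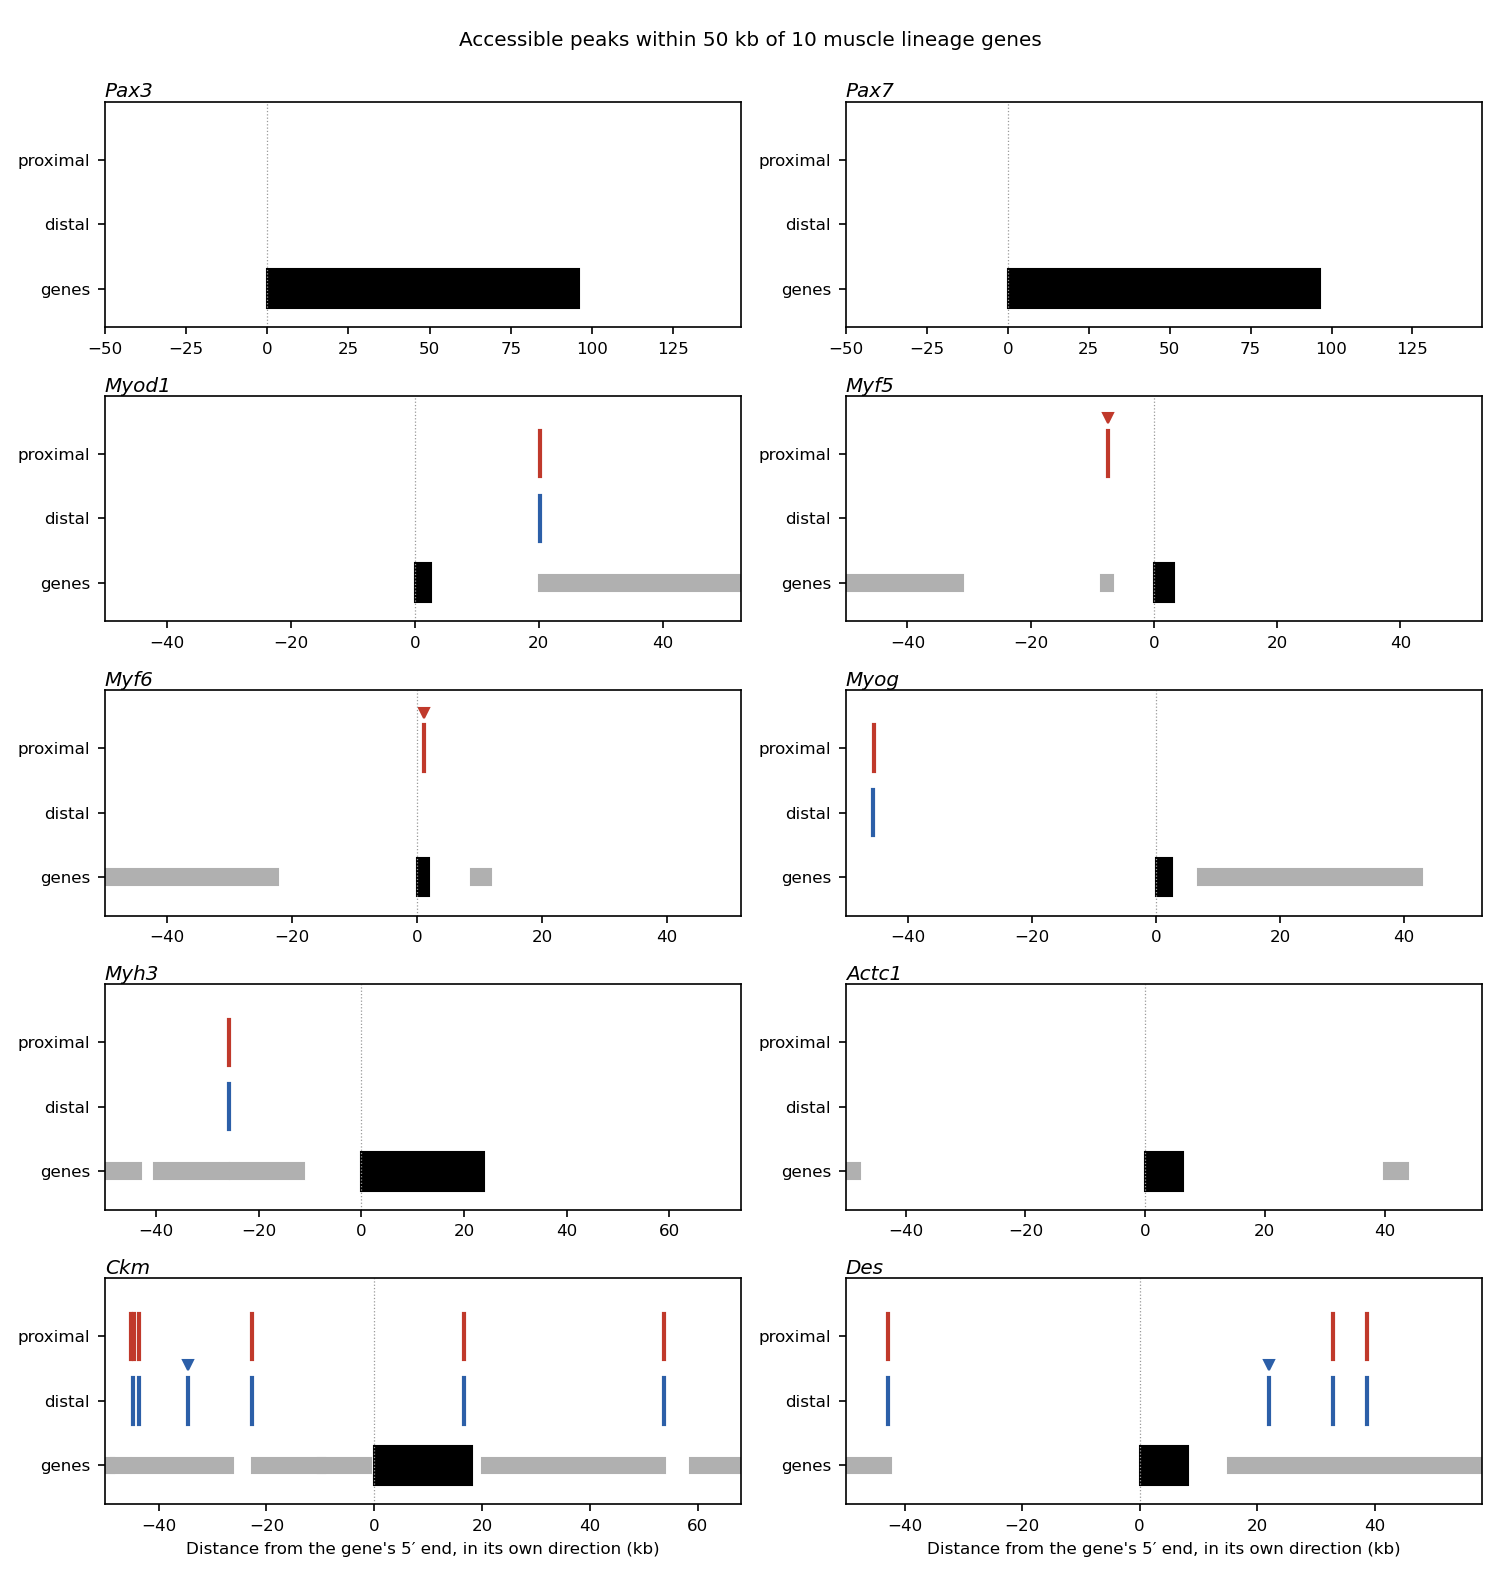
Peaks within 50 kb of each of the 10 genes. The horizontal axis is distance (kb) from the 5′ end of the gene in its own direction, vertical marks stand at peak centres in the proximal (red) and distal (blue) femur, triangles mark peaks called in 1 end only, black boxes are the gene and grey boxes other protein-coding genes; Pax3, Pax7 and Actc1 have no mark, and the Myf5 and Myf6 panels show the same peak.

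The paired box genes stood in the emptiest surroundings. Pax3 (ENSMUSG00000004872.15, chr1:78101267-78197134, minus strand), which is needed for muscle precursors to enter the limb, had its nearest peak 291 kb from a start site in the proximal femur and 187 kb away in the distal femur. A nearer peak was found for 96.5% and 93.5% of all genes. No peak of either end fell in an interval of 479 kb around its 5′ end. Pax7 (ENSMUSG00000028736.13, chr4:139737062-139833528, minus strand), which marks muscle precursors and the later satellite stem cells, lay in a longer gap of 1042 kb, of which 832 kb was upstream and 210 kb downstream. A shorter gap was found around 96.7% of all genes. Its nearest peak was 210 kb away in each end. Both genes had 0 protein-coding neighbours within 50 kb.

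The determination factors, which commit cells to muscle and drive their differentiation, differed from each other in what lay near them. Myod1 (ENSMUSG00000009471.4, chr7:46376474-46379099, plus strand), the first of them to be found able to turn fibroblasts into muscle, had 1 peak in each end, at chr7:46396295-46397089 (proximal) and chr7:46396209-46397083 (distal). That peak covered the start of the neighbouring potassium channel gene Kcnc1, 19.8 kb and 19.7 kb from the Myod1 start. Upstream of Myod1 no peak was called for 245 kb. Myog (ENSMUSG00000026459.5, chr1:134289989-134292548, plus strand), which drives fusion and terminal differentiation, also had 1 peak in each end. The proximal peak, chr1:134244229-134244745, covered the whole of the distal one, chr1:134244233-134244606, and both lay about 45 kb upstream. This peak lay in no annotated gene, and the nearest start site belonged to another gene 8798 bp away.

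Myf5 and Myf6 are adjacent on chromosome 10 and point the same way, with Myf6 upstream. Myf5 (ENSMUSG00000000435.1, chr10:107482908-107486134, minus strand) is the first determination factor switched on in the embryo, and Myf6 (ENSMUSG00000035923.4, chr10:107492853-107494737, minus strand), also called MRF4, acts in early muscle precursors and again in mature fibres. A single peak lay near them, chr10:107493150-107493953, called in the proximal femur and not in the distal femur. It was 784 bp from the Myf6 start and 7.02 kb from the Myf5 start. In the distal femur the nearest peaks were 105 kb and 96.2 kb away. Both genes were thus the nearest members to a peak in the proximal list and among the 5 farthest in the distal list, and the difference rested on 1 peak.

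The Myf6 peak was 804 bp wide and covered 42.7% of the 1885 bp gene, with 414 bp in exons and 390 bp in introns. It began 784 bp downstream of the start site and did not reach the first exon. Of its bases, 28.5% were masked as repeats in the reference, the highest value of the 13 proximal peaks near members, whose median was 3.83%. The masked part included the run of 21 CACAG units over 105 bp, the end of which opens the printed sequence, and the stretch of 18 T within it. A repeat share at least as high was found in 9.94% of all peaks called in the proximal femur alone, where the median was 8.73%. Whether the repeat had a part in the call was not tested. The whole peak held 5 matches to CANNTG, 0 of them of the CAGCTG form, and its middle 300 bp held none.

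**Figure D2:**
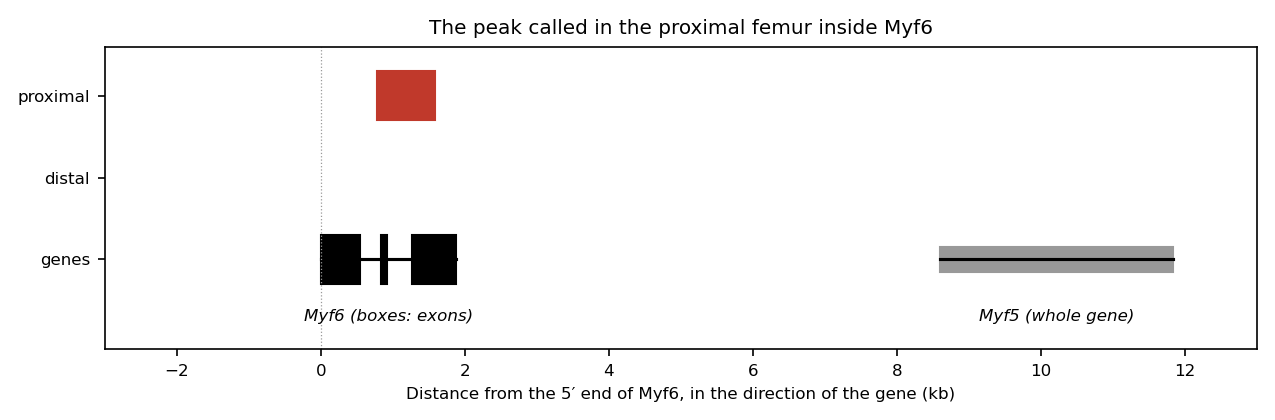
The Myf6 locus to scale. The horizontal axis is distance (kb) from the 5′ end of Myf6 in the direction of the gene, black boxes are Myf6 exons, the grey box is Myf5 and the red box is the 804 bp peak of the proximal femur, which spans the second exon and the start of the third; the distal row is empty.

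The structural and metabolic genes had peaks around them that mostly belonged to neighbours. Myh3 (ENSMUSG00000020908.14, chr11:67078300-67102291, plus strand) encodes the embryonic myosin heavy chain of the first fibres. Its only peak in either end, 25.3 kb upstream, lay at the start of Adprm. Actc1 (ENSMUSG00000068614.7, chr2:114047282-114053548, minus strand), the cardiac actin that embryonic skeletal muscle also uses, had its nearest peak 121 kb away in each end and lay in a gap of 325 kb. Neither gene had a peak inside its transcribed region.

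Ckm (ENSMUSG00000030399.2, chr7:19404776-19422841, plus strand) encodes muscle creatine kinase, which regenerates ATP during contraction. It lies among 6 protein-coding neighbours, of which Cd3eap, Ppp1r13l, Ercc2 and Mark4 had promoter peaks in both ends. One of its peaks, shared by both ends, was inside the gene, at chr7:19421155-19421684 (proximal) and chr7:19421115-19421685 (distal). It lay in an exon 16.6 kb downstream of the 5′ end, 10.1 kb from the nearest Ckm start, and covered the start of the antisense transcript A930016O22Rik. The sequence shown for it held 3 matches to CANNTG, 1 of them CAGCTG. A further peak, chr7:19369885-19370415, was called in the distal femur alone. It was 531 bp wide and sat in an exon of Ppp1r13l, 1387 bp from the nearest start site, with its centre at -34.6 kb from the 5′ end of Ckm.

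Des (ENSMUSG00000026208.9, chr1:75360329-75368579, plus strand) encodes desmin, the intermediate filament that ties sarcomeres together. It had 3 peaks within 50 kb in the proximal femur and 4 in the distal femur, none of them inside Des. One covered the start of Dnpep upstream. The other positions were all in Speg, which encodes a kinase of striated muscle. The peak called in the distal femur alone, chr1:75381871-75382645, was 775 bp wide and covered an annotated start site of Speg, 6574 bp from the 5′ end of that gene. The nearest proximal peak to the Speg 5′ end was 17.6 kb away, in the intron region with the AP-1 matches. Consequently the nearest peak to a Des start was at 30.8 kb in the proximal femur and at 19.8 kb in the distal femur.

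**Figure D3:**
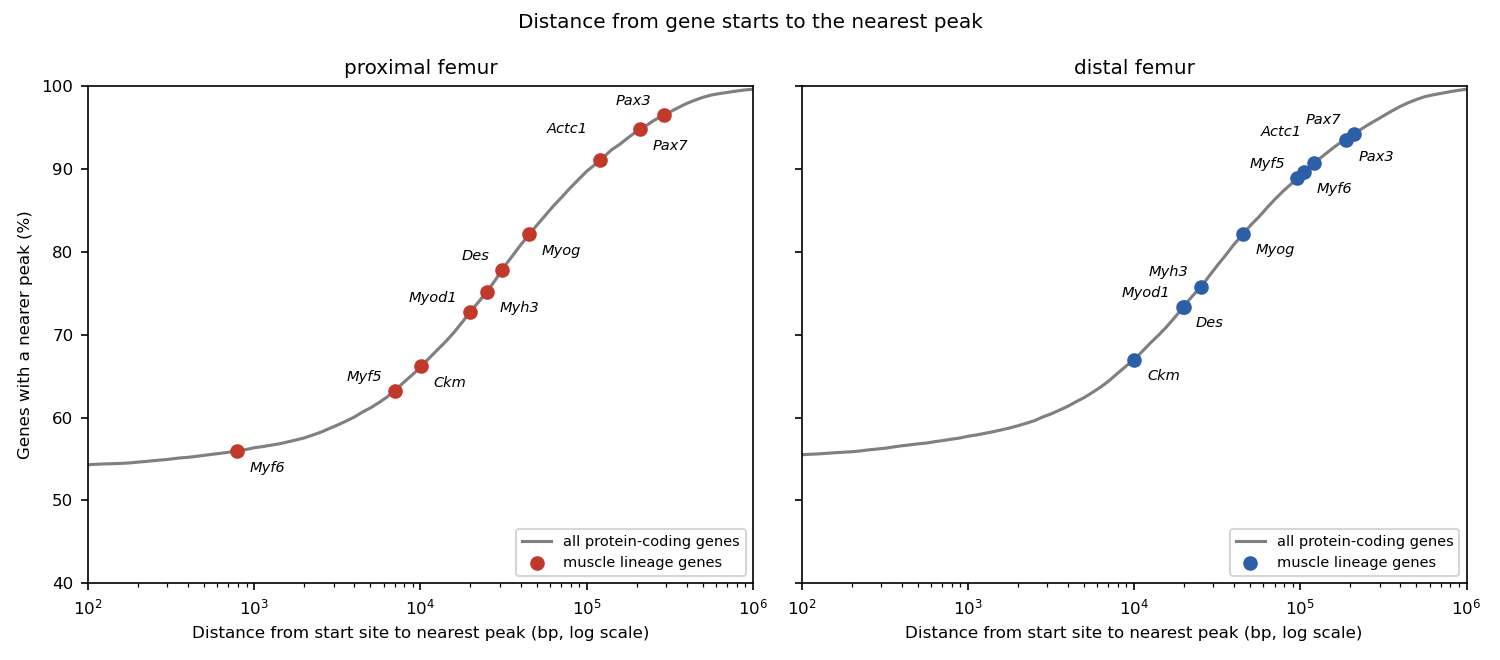
Distance from the nearest start site of each gene to the nearest peak. The horizontal axis is distance in bp on a log scale, the vertical axis is the share of the 20807 genes (%) with a nearer peak, grey lines are all genes and coloured points are the members; Myf6 and Myf5 lie at the left of the proximal panel and near the top of the distal panel.

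In order of distance in the proximal femur, the members ran from Myf6 (0.784 kb) and Myf5 (7.02 kb) through Ckm (10.1 kb), Myod1 (19.8 kb), Myh3 (25.3 kb), Des (30.8 kb) and Myog (45.2 kb) to Actc1 (121 kb), Pax7 (210 kb) and Pax3 (291 kb). In the distal femur the order was Ckm (10.1 kb), Myod1 (19.7 kb), Des (19.8 kb), Myh3 (25.3 kb), Myog (45.4 kb), Myf5 (96.2 kb), Myf6 (105 kb), Actc1 (121 kb), Pax3 (187 kb) and Pax7 (210 kb). With 1 list for each end, no spread could be set against these distances. The median member was 28.1 kb from a peak in the proximal femur and 70.8 kb in the distal femur, whereas the median gene had a peak over a start site (0 bp). The window of 50 kb came close to a peak at Myog, whose peak lay 45.4 kb from the gene in the farther list and whose next one was 51.6 kb away, and at Myh3, where the next peak was at 52.8 kb.

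Of the 13 proximal peaks near members, 1 was called in that end alone, the Myf6 peak (7.69%, exact 95% interval 0.195% to 36.0%, counting error only). In the whole proximal list the share was 16.1%. Of the 13 distal peaks, 2 were called in that end alone, those in Ppp1r13l and Speg (15.4%, interval 1.92% to 45.4%), beside 15.0% in the whole distal list. Counted by gene, 2 of 10 members had a proximal-only peak within 50 kb (Myf5 and Myf6, sharing it) and 2 had a distal-only peak (Ckm and Des). The shares over all genes were 24.6% and 28.1%. Both shares of peaks had intervals that held the value of the whole list. The 3 single-end peaks were 804, 531 and 775 bp wide, and the median single-end peak was 510 bp wide in the proximal list and 497 bp in the distal list.

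Most peaks in the members' windows sat at start sites of other genes. In each end 10 of 13 peaks were within 1 kb of a start site of a gene other than a member. The 13 protein-coding neighbours within 50 kb included 9 with a promoter peak in each end, namely Kcnc1, Adprm, Sco1, Cd3eap, Ppp1r13l, Ercc2, Mark4, Dnpep and Speg. Of these 13 neighbours 10 had CpG-rich starts, a class with many promoter peaks, and over all genes 56.4% and 57.7% had a promoter peak. When a peak was assigned to the gene with the nearest start site, 1 proximal peak and 0 distal peaks belonged to a member.

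Promoters rich in CpG are often accessible in many cell types, so the members were split by the base composition within 500 bp of the 5′ end. A start was called CpG-rich where GC content was at least 50% and the observed over expected CpG ratio at least 0.6. Of 9511 genes with such a start, 89.9% had a promoter peak in either end, and of the 11296 others 33.2% did. Pax3 (ratio 0.67), Pax7 (0.64) and Des (0.70) had CpG-rich starts, and 0 of these 3 had a promoter peak. Among the 7 other members, with ratios from 0.18 at Actc1 to 0.48 at Myod1, 1 had a promoter peak (Myf6, ratio 0.38). At Ckm and Actc1 the 5′ end used here lay upstream of the RefSeq start whose promoter was searched for motifs, so their ratios describe a different stretch. Of the 10 neighbours with a CpG-rich start 8 had a promoter peak.

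**Figure D4:**
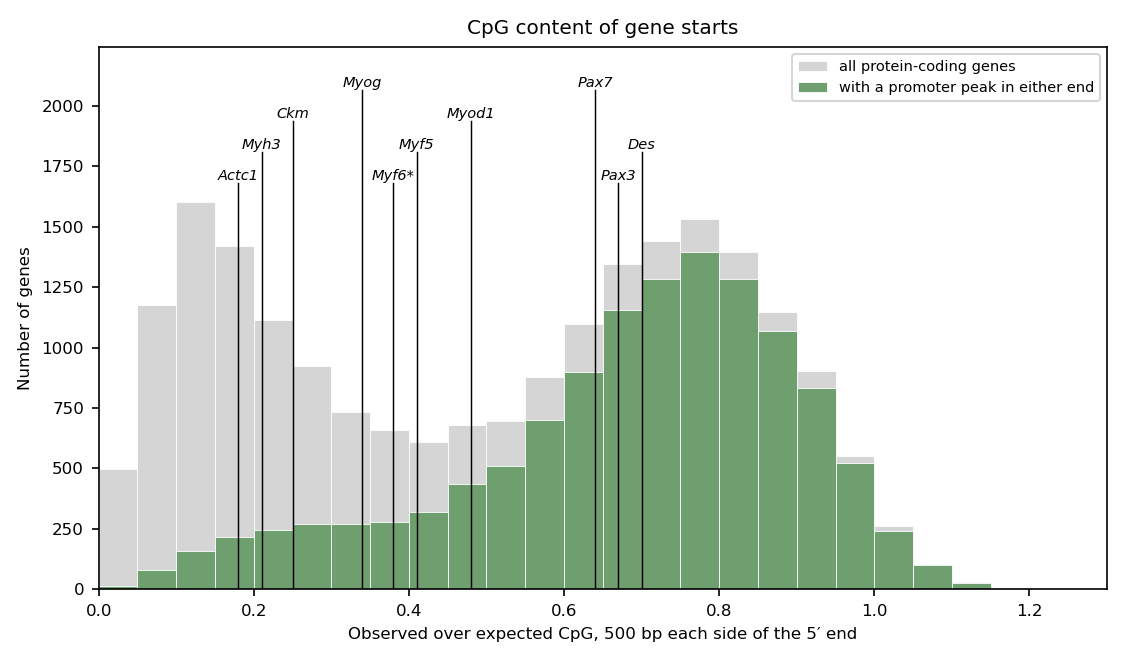
CpG content of gene starts. The horizontal axis is the observed over expected CpG ratio within 500 bp of the 5′ end, the vertical axis is the number of genes, grey bars are all protein-coding genes and green bars those with a promoter peak in either end; lines mark the 10 members (asterisk, the 1 with a promoter peak), and Pax3, Pax7 and Des stand among bars that are mostly green.

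Motif matches gave no feature common to the 14 regions near members. The middle 300 bp of 5 regions held CANNTG, which was present in 71.3% of all 32388 regions. CAGCTG, 1 form of CANNTG, was present in 3 of 14 and in 19.4% of all. TGANTCA was found in 1 of 14, the peak shared by both ends in Speg with 2 matches, and in 29.8% of all. MEF2 and CArG motifs were found in 0 of 14, and in 2.97% and 1.42% of all regions. These counts depend on the exact window: the middle 300 bp of the distal peak at the same place in Speg, chr1:75393128-75393427, reached 1 CArG box and 1 CANNTG that the middle of the merged region and the printed sequence stop short of. Both strands were searched and each position was counted once. A match is a description of the letters, not a bound site.

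Promoter sequence of 300 bp was found in RefSeq for 7 of the 10 members (not for Pax3, Myod1 and Myf6). CANNTG was present in 5 of these 7 (Myog, Myh3, Actc1, Ckm and Des) and in 72.2% of 31396 promoters. At Actc1 the match lay in the part of the 300 bp that was not printed. CAGCTG was present at Ckm and Des, and in 16.3% of promoters. The Actc1 promoter held a CArG box, which was present in 1.57% of promoters. No member promoter held a full match to the MEF2 pattern (3.10% of promoters) or to TGANTCA (7.84%). That pattern asks for a purine at its end, so it passes over ctatatttat in the printed Myog promoter, which ends in T. The MEF2 count therefore describes the pattern searched and not every MEF2-like sequence. The E-boxes and the CArG box in the printed Myog, Actc1 and Des promoters therefore lay in DNA where no peak was called.

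A further list of 37 muscle genes outside the 10 was read in the same way and gave higher counts. Of 13 regulators, 8 had a promoter peak in the proximal femur and 7 in the distal femur. Among these were Six4 and Eya1, which act upstream of the determination factors and in other tissues too, the receptor Met, through which hepatocyte growth factor guides precursors into the limb, the MEF2 genes Mef2a, Mef2c and Mef2d, and, in the proximal femur alone, Msc, which encodes the repressor musculin. Of 24 structural genes, 6 and 8 had one. Myl4, Mylpf, Tnnt1, Actn2, Myom1 and Cav3 had it in both ends, and the myosin light chain gene Myl1 and the fast troponin I gene Tnni2 in the distal femur alone. In all 37, the counts were 14 (37.8%) and 15 (40.5%), beside 56.4% and 57.7% of all genes. With the 5′ end of the gene as its only start, the counts were 12 and 12 of 37, and 52.2% and 53.6% of all genes had a peak there. Mef2c and Tnnt1 dropped out in both ends and Myl1 in the distal femur, since their peaks lay at start sites further inside the gene.

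Of the 11 genes of this list with a CpG-rich start 9 had a promoter peak in either end, and of the 26 others 7 did, near the 89.9% and 33.2% of all genes. The genes whose pattern was most like a member's were those with the same promoter state and the same number of peaks within 50 kb in both ends. Eya2, Lbx1 and Myh8 matched Pax3, Pax7 and Actc1, with no peak at all. Cdh15 matched Myod1, Myog and Myh3, Mymx matched Ckm and Casq2 matched Des. None of the 37 matched Myf5 or Myf6.

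The label of the tissue was checked with 16 cartilage markers. A promoter peak was called at 11 of them in the proximal femur and 14 in the distal femur, and 15 had one in at least 1 end. The proximal share, 68.8%, was close to the 56.4% of all genes, and the distal share, 87.5%, stood beside 57.7%. Of the 4 markers with a CpG-rich start 4 had a promoter peak in either end, and of the 12 others 11 did. Over all genes these shares were 89.9% and 33.2%. The exception was Matn1, a cartilage matrix protein. Markers of other tissues gave mixed counts. Of 6 osteoblast markers, 1 (Spp1, osteopontin) had a promoter peak in the proximal femur and 0 in the distal femur. Of 6 endothelial markers, Kdr, a receptor for vascular endothelial growth factor, had one in both ends, and Tek, the angiopoietin receptor, in the distal femur. Of 6 blood markers, 2 had one in both ends, among them the red cell factor Klf1. Of 6 nerve and glia markers, 4 had one in both ends, among them the neuronal genes Elavl4, Snap25 and Syt1. The nerve and glia share, 66.7% in each end, was near that of all genes (56.4% and 57.7%), so nothing about nerve cells is read from it. The part of such cells in the muscle counts was not tested.

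**Figure D5:**
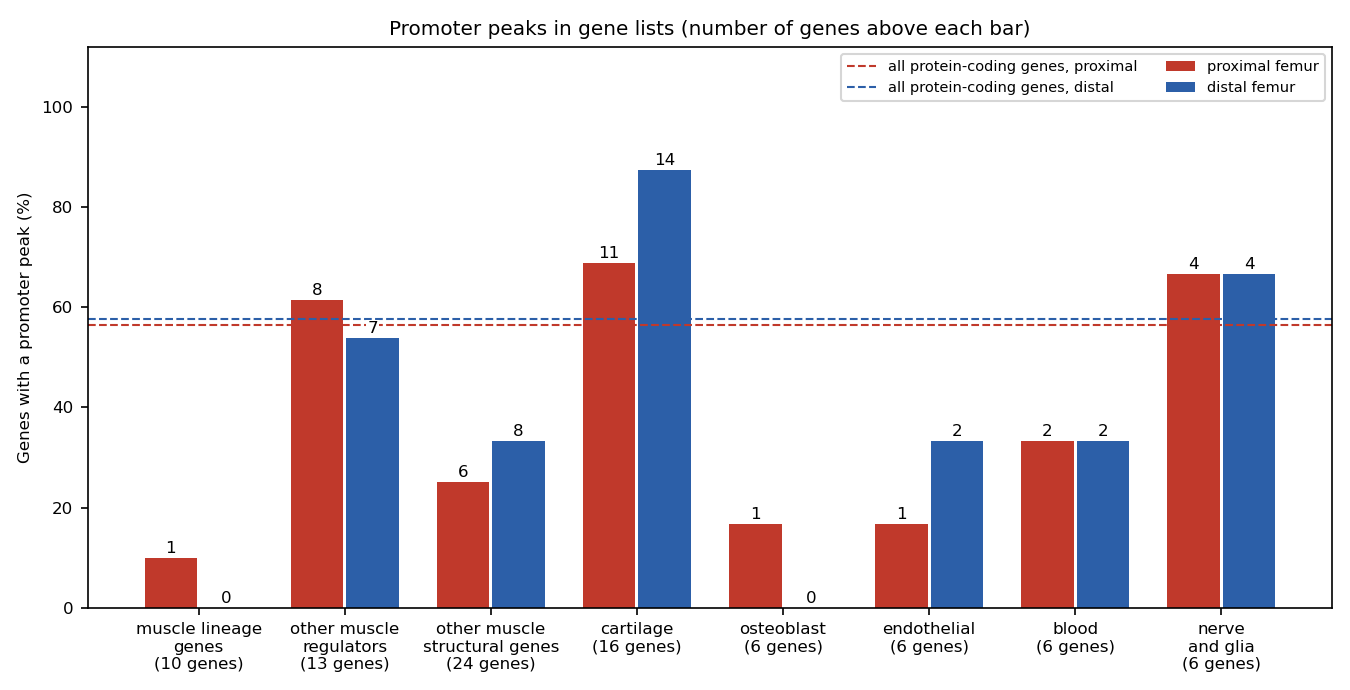
Promoter peaks in 8 gene lists. Bars give the share of genes (%) with a promoter peak in the proximal (red) and distal (blue) femur from 1 peak list per end, numbers above bars are genes, and dashed lines are all protein-coding genes; the 10 muscle lineage genes stand at 1 and 0 genes, and cartilage markers at 11 and 14 of 16.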

How the data were processed

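The authors deposited 1 list of ATAC-seq peaks for each femur end as positions only, without a score, signal or read count. Per the submitters' processing notes, reads were aligned to mm10 with Bowtie2 2.2.8 and peaks called with MACS2 2.1.1, and the lists keep peaks with an irreproducible discovery rate under 0.05 between 2 biological replicates. Both lists cover 19 autosomes, and 0 columns of other samples were present. The replicates were combined by the authors before deposit, so the analysis compares 2 lists and no p-value is given.

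Positions were read with Python 3.11.15 and NumPy 2.4.6, and 1 was added to each start. Genes and start sites came from GENCODE release 21 for mouse, and sequence and masked bases from the RefSeq GRCm38.p6 genome through pysam 0.24.0 and samtools 1.23.1. A gene's window was its body and 50 kb on each side. A peak was called in 1 end only if it shared no base (minimum 1 bp) with the other list. Exact (Clopper-Pearson) 95% intervals came from SciPy 1.17.1. Figures were drawn with matplotlib 3.10.9. The overlap and distance code was tested on simulated data. Peak width and overlap between lists can shift with the caller's threshold and with sequencing depth, which was not analysed here.

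The members and all gene lists were chosen with earlier results of these data known. Named were all 10 members, neighbours with a start within 1 kb of a peak, other muscle genes and markers with a promoter peak (for cartilage, those without), and the genes most like each member. Some genes under this rule, and 1 sequence, are not reported here. The MEF2 pattern was widened to allow either pyrimidine and either purine at its ends after a first search. Alternatives were other promoter definitions, windows of 20 and 100 kb, stricter and looser overlap, assignment to the nearest start, and wide peaks only. Using the 5′ end of the gene for the other lists was added after seeing the data.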

Additional observations from a re-analysis of the deposited data

How the results depend on the processing

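With the promoter distance widened to 3 kb, 9 of 10 members still had no promoter peak in either end, and the distal count stayed at 0. The other promoter definitions were narrower than the main one. They could only lower a count, so their agreement on the absent peaks carries no weight. The proximal count fell from 1 to 0 with a promoter of 1 kb upstream to 100 bp downstream. The number of peaks near members followed the window: with 20 kb it was 3 in each end, with 100 kb it was 29 proximal and 32 distal, and with assignment to the nearest start it was 1 and 0. With peaks below the median width left out, the distal number was 7. Proximal-only peaks numbered 2 with a reciprocal overlap of 50%, 2 with 100 kb and 3 with wide peaks. Those added by the reciprocal overlap and by wide peaks overlapped a peak of the full distal list, so they were not further single-end peaks. Distal-only peaks numbered 1 with 20 kb, 6 with 100 kb and 1 with wide peaks. None of these settings could make the Myf6 peak a shared one, because the nearest distal peak was 105 kb from the Myf6 start. Of the alternative values, 18 stayed within 1.5 times the main one and 14 did not. No paired analysis was possible because each end has 1 list that combines its replicates, and for the same reason no replicate could be left out. Without peak heights or reads, a peak just under the threshold in 1 end looks the same as a closed region.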

Other observations

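Myh3 is the first of 6 myosin heavy chain genes in a row on chromosome 11, chosen for description after its surroundings had been seen. The others are Myh2, Myh1 and Myh4 (adult fast fibres), Myh8 (perinatal fibres) and Myh13 (extraocular muscle). The cluster spans chr11:67078300-67371586 in mm10, 293 kb, and 0 peaks of either end fell inside it. The peak-free stretch around it ran over 462 kb, from the peak at Adprm to the next one beyond Myh13. An interval this long was longer than that around 90.2% of all genes.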
